A study of Mus musculus with 34 samples.

Results

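Both Degs1 knockout clones of mouse colon tumour organoids were compared with a hairpin control in 28 of the 34 RNA-sequencing libraries of the study. The knockout groups were Degs1-KO clone1 and Degs1-KO clone2, with 9 libraries each, made in the study with CRISPR ribonucleoprotein, that is, Cas9 protein delivered together with a guide RNA. The control group was shControl, with 10 libraries of organoids that carried a control hairpin. All groups shared the tissue label colon, the cell type label epithelial and the genotype label AKP. A further 3 libraries labelled Scrambled, for which the labels do not say what was scrambled, are set beside the results and take no part in the main fit. The members were every gene that passed the filter on low counts, 10727 in all, and each was tested for the mean of both clones, weighted equally, against shControl. A gene was said to have changed in both clones when clone1 and clone2 each passed the threshold with the same sign. Each clone is 1 line, the labels do not say which replicates were separate cultures, and p-values therefore measure the spread between libraries, which may be technical.

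Degs1 encodes dihydroceramide desaturase, which places the double bond that turns dihydroceramide into ceramide in the endoplasmic reticulum. Ceramide is the parent of sphingomyelin and the glycosphingolipids and, through ceramidases, of sphingosine. In the intestine, crypt-base stem cells marked by Lgr5 renew the epithelium, and after injury cells marked by Clu, Anxa1 and Ly6a take up a fetal-like state that depends on the coactivator YAP, a program called revival. Chaperones of the cytosol and of the endoplasmic reticulum are controlled by separate transcription factors, HSF1 in the cytosol and ATF6 and XBP1 in the endoplasmic reticulum, while ATF4 drives the integrated stress response.

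The 28 libraries held from 883253 to 6597099 counts, with clone1 replicate 2 the shallowest and shControl replicate 3, at 1747533, the next. Every library lay nearest a library of its own group. The knockouts were made with CRISPR and shControl carried a hairpin, so that difference and the knockout cannot be told apart in this comparison. Within each group, neighbouring replicate numbers formed sets that were more alike than the rest, least clearly in clone1. Deviations from group means had median correlations within sets of -0.03 in clone1, 0.09 in clone2 and 0.18 in shControl. Between sets these were -0.16, -0.20 and -0.23. Clone1 sets were 1 to 6 and 7 to 9. Clone2 sets were 1 to 2, 3 to 6 and 7 to 9. Values from shControl 1 to 4, 5 to 7 and 8 to 10, and from knockout replicates 7 to 9, are given where they change a result. The sets were drawn after the values had been seen, and none held both knockouts and shControl. Counts and p-values from limma with these sets as a random block (estimated correlation 0.276), called the set block, are given where they end a call or move a count by over 1.5 times. Epithelial markers were high in every library, with Epcam at 332 to 555 CPM in clone1, 190.1 to 271 CPM in clone2 and 216 to 377 CPM in shControl. CPM, the usual count unit relative to the size of the library, is given here after TMM scaling. The 6 colon markers summed to 590.2 to 1454 CPM in clone1 and 157 to 556 CPM in clone2, against 145 to 419 CPM in shControl, so that clone1 lay above shControl and clone2 overlapped it. Of the 5 tested, the carbonic anhydrase Car1 and the keratin Krt20 were higher in clone1 and Cdx1 was lower in it, while Cdx1, Cdx2, Lgr5 and Krt20 were lower in clone2. The goblet mucin Muc2, the member not tested, had 1, 13 and 4 counts in all libraries of clone1, clone2 and shControl. Markers of other cell types were near 0. The 6 fibroblast markers summed to at most 0.823 CPM in a knockout library and 0.931 in a shControl library, the 6 immune markers to at most 1.70 and 1.42 CPM, and the 4 endothelial markers to at most 2.25 and 1.68 CPM.

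Degs1 mRNA was lower in both clones, though the libraries overlapped. Degs1 (chromosome 1, 182275772 to 182282804, mm10) had a lowest, median and highest level of 0.815, 3.04 and 4.59 CPM in clone1 and 0.219, 1.89 and 2.87 CPM in clone2, against 2.63, 5 and 7.93 CPM in shControl. Of the 18 knockout libraries, 11 lay below the lowest shControl library. The mean of both clones changed by -1.33 ± 0.27 on the log2 scale (SE of the fit, edgeR adjusted p = 0.000269), with clone1 at -1.06 ± 0.32 (adjusted p = 0.0165) and clone2 at -1.61 ± 0.33 (adjusted p = 0.000161). Against Scrambled, at 4.95, 8.1 and 10.2 CPM, the change was -1.85 ± 0.34. The counts were small, between 1 and 27 a library for clone1 and between 1 and 14 for clone2. The position of the edit was not given, and the mRNA level does not measure the protein. With shControl replicates 5 to 7 as the only control the change was -1.17 (adjusted p = 0.0832), and with knockout replicates 7 to 9 alone it was -0.90 (adjusted p = 0.0549). The call in clone1 was lost with the set block (adjusted p = 0.191), with shControl 1 to 4 (adjusted p = 0.164) or 5 to 7 (adjusted p = 0.264) as the only control, and with knockout replicates 7 to 9 alone (adjusted p = 0.256). Yap1, the target of the study's other experiment, had -0.03 ± 0.14 (adjusted p = 0.913).

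Against shControl, the mean of both clones passed an adjusted p of 0.05 in 2376 genes, 22.1% of those tested, with 1101 higher (10.3%) and 1275 lower (11.9%). Changes of at least 1 on the log2 scale were found in 430 of them, or 4.01%. Taken singly, clone1 passed in 2154 genes (20.1%, with 8.99% higher and 11.1% lower) and clone2 in 4170 (38.9%, with 18.7% higher and 20.2% lower). Both clones passed with the same sign in 660 genes, 6.15% of those tested, with 354 higher (3.3%) and 306 lower (2.85%). Of these, 148 (1.38%) passed with a change of at least 1 in each clone. Both clones passed with opposite signs in 438 genes (4.08%). The direct comparison of clone2 with clone1 passed in 4827 genes (45%), and of the 660 shared genes 199 differed in size between the clones, 158 of them larger in clone2. The 660 genes passed against a shControl group that both clones shared, so the count is a description and not a measure of agreement between independent tests.

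The 10 largest rises shared by both clones were led by a keratin of stratified epithelium and by lymphocyte antigen 6 (Ly6) family genes. Krt15 (chromosome 11, 100131758 to 100135928), a type I keratin of basal cells and of the hair follicle stem cell niche, had 12.2, 22 and 31.5 CPM in clone1 and 18.3, 33.7 and 41.3 CPM in clone2, against 0, 2.43 and 6.39 CPM in shControl (lowest, median and highest). All 18 knockout libraries lay above all 10 shControl libraries, and the mean rose by 3.17 ± 0.30 (edgeR adjusted p = 3.13e-09). The forkhead factor Foxn1, which drives thymic epithelium and hair keratin expression, had 4.29, 9.35 and 20.39 CPM in clone1 and 11.9, 20.8 and 24.1 CPM in clone2, against 0, 3.29 and 6.2 CPM in shControl. In 16 of 18 knockout libraries it was above the highest shControl library, and it rose by 2.06 ± 0.31 (adjusted p = 7.37e-06). In clone1 the Foxn1 call was lost with shControl 5 to 7 (adjusted p = 0.101) and with knockout replicates 7 to 9 (adjusted p = 0.136). Krt15 and Foxn1 were also higher against Scrambled, Krt15 by 4.02 ± 0.53 and Foxn1 by 2.91 ± 0.53.

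Cma1 and Dner were higher in every knockout library than in any shControl library. Cma1 (chromosome 14, 55941451 to 55944675), which encodes chymase, a protease known from mast cells, had 1933, 2648 and 3387 CPM in clone1 and 3383, 3854 and 4341 CPM in clone2, against 494, 850.3 and 1165 CPM in shControl, a rise of 1.98 ± 0.13 (adjusted p = 2.4e-13). Of 8 mast cell markers looked at after this result was seen, the defining genes Cpa3, Tpsb2, Tpsab1, Ms4a2 and Fcer1a were at 0 in every knockout and shControl library. The summed level of the 8 reached at most 1.63 CPM in clone1, 1.41 in clone2 and 2.48 in shControl. Dner, a transmembrane protein with EGF-like repeats that can act as a Notch ligand, had 8.65, 13.6 and 16.8 CPM in clone1 and 11.5, 19.2 and 26.3 CPM in clone2, against 0.186, 3.36 and 7.89 CPM in shControl, a rise of 1.93 ± 0.26 (adjusted p = 8.73e-07). Against Scrambled, Cma1 rose by 2.32 ± 0.21 and Dner by 3.41 ± 0.49.

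Ly6 genes encode surface proteins, most of them GPI-anchored. Of 11 tested genes whose symbol starts with Ly6, a tally made after the values were seen, 10 were higher and 0 lower in the mean. In both clones at once 8 were higher, with 9 higher in clone1 and 10 in clone2. Over all genes tested, 10.3% were higher in the mean and 3.3% in both clones at once. Taken singly, 8.99% were higher in clone1 and 18.7% in clone2. Of the 8 on chromosome 15, 7 were higher in the mean and 4 against Scrambled, and Ly6m passed with opposite signs in the clones. Ly6c2 had 21.8, 30.5 and 45 CPM in clone1 and 11.5, 28.7 and 38.5 CPM in clone2, against 3.04, 5.38 and 7.45 CPM in shControl, with no overlap and a rise of 2.42 ± 0.20 (adjusted p = 4.74e-12). Scrambled, at 11.3, 17.3 and 24.4 CPM, was itself above shControl by 1.78 ± 0.30 (adjusted p = 0.000252), and the clones differed from Scrambled by 0.66 ± 0.29 (adjusted p = 0.126). Its neighbours Ly6c1 (1.35 ± 0.13) and Ly6g (1.54 ± 0.17), chosen after their values were seen, also had no overlap between knockouts and shControl, and both passed against Scrambled. Ly6a, a marker of fetal-like epithelium, rose by 0.73 ± 0.09 (adjusted p = 1.54e-07) and Ly6d by 1.45 ± 0.28 (adjusted p = 0.000389). These genes have close sequences, and how reads were divided among them is uncertain. Of 8 neutrophil markers, Mpo, Elane, Ngp and Camp were at 0 in every library, while Ly6g is an antigen known from neutrophils. Cxcr2 was the only one of the 8 above the filter, and the list summed to 25.5 to 32.1 CPM in clone1 and 14 to 25.7 CPM in clone2, against 20 to 39.5 CPM in shControl. Ly6g6c, a family member on chromosome 17, had 7.61, 10.7 and 15 CPM in clone1 and 4.41, 14.1 and 29.3 CPM in clone2, against 0, 1.56 and 6.18 CPM in shControl, a rise of 2.54 ± 0.39 (adjusted p = 1.57e-05). Its call was lost in clone1 with shControl 8 to 10 (adjusted p = 0.0892) and in clone2 with knockout replicates 7 to 9 (adjusted p = 0.0775).

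The other shared rises came from unrelated families. Bcl2l15, a Bcl-2 relative expressed in the gut, had 4.08, 8.97 and 21 CPM in clone1 and 11.3, 16.9 and 23.4 CPM in clone2, against 0.529, 2.53 and 5.32 CPM in shControl, a rise of 2.13 ± 0.26 (adjusted p = 4.68e-08). Bcas1, known from myelinating oligodendrocytes, had 4.43, 9.84 and 13.3 CPM in clone1 and 8.64, 17.5 and 21.3 CPM in clone2, against 1.01, 3.28 and 4.9 CPM in shControl, a rise of 2.04 ± 0.20 (adjusted p = 4.23e-10). All but 1 knockout library of Bcas1 lay above the highest shControl library. Fam3b, a secreted protein known from pancreatic islets, had 4.25, 11 and 18.8 CPM in clone1 and 7.1, 11.6 and 19 CPM in clone2, against 1.76, 3.24 and 5.32 CPM in shControl, a rise of 1.72 ± 0.21 (adjusted p = 7.89e-08). With knockout replicates 7 to 9 alone, the clone1 calls of Bcl2l15 (adjusted p = 0.0649) and Fam3b (adjusted p = 0.0985) were lost. The value of Fam3b against Scrambled was 0.68 ± 0.31 (adjusted p = 0.139). The fatty acid carrier Fabp4, a target of PPAR-gamma in adipocytes, had 33, 78.6 and 92.4 CPM in clone1 and 34.5, 53.8 and 78.9 CPM in clone2, against 9.31, 16.7 and 36.1 CPM in shControl, a rise of 1.71 ± 0.24 (adjusted p = 4.64e-06). Scrambled lay below shControl for Fabp4, at 2.44, 5.09 and 5.88 CPM, and with shControl replicates 5 to 7 as the only control the rise was 0.99 (adjusted p = 0.0509).

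**Figure D1:**
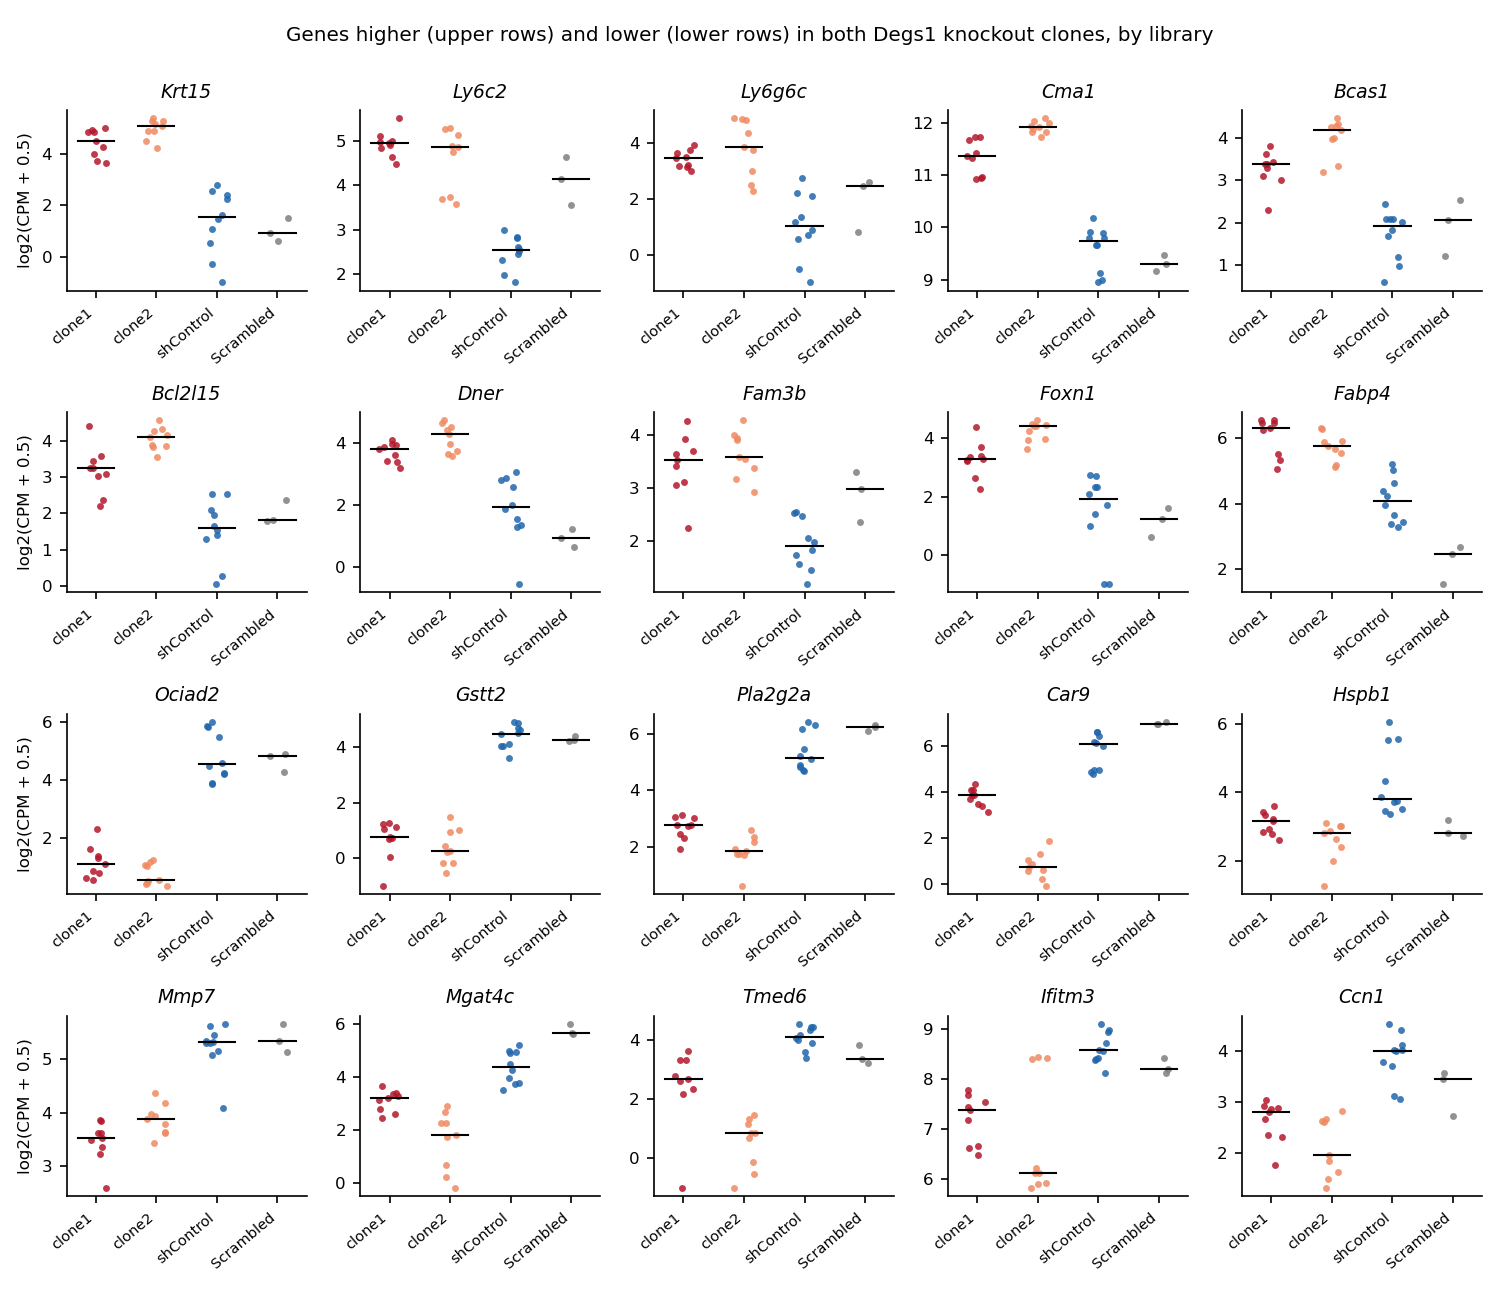
Levels of the 10 largest rises and 10 largest falls shared by both clones, as log2(CPM + 0.5) on each panel's own axis, with 1 point per library and a bar at the median of clone1 (9 libraries), clone2 (9), shControl (10) and Scrambled (3). Knockout and shControl points are fully apart for Krt15, Ly6c2, Cma1, Dner, Ociad2, Gstt2, Pla2g2a, Car9 and Ccn1, while Ifitm3 in clone2 falls into 2 sets of libraries.

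The largest shared falls included genes that were almost absent from both clones. Ociad2 (chromosome 5, 73322199 to 73341028), which encodes an OCIA domain protein, had 0.935, 1.63 and 4.43 CPM in clone1 and 0.755, 0.96 and 1.84 CPM in clone2, against 14.1, 22.7 and 63.2 CPM in shControl. The theta-class glutathione transferase Gstt2 (chromosome 10, 75831114 to 75837424) had 0, 1.19 and 1.9 CPM in clone1 and 0.189, 0.695 and 2.3 CPM in clone2, against 11.7, 22 and 29.4 CPM in shControl. Neither gene overlapped between knockouts and shControl, and the mean changed by -4.52 ± 0.26 for Ociad2 (edgeR adjusted p = 5.27e-15) and by -4.20 ± 0.21 for Gstt2 (adjusted p = 3.3e-18). Scrambled lay within the shControl range for both genes, and the changes against it were -4.13 ± 0.33 for Ociad2 and -4.04 ± 0.26 for Gstt2.

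Pla2g2a, Car9 and Mmp7 fell as well. Pla2g2a (chromosome 4, 138831857 to 138835186), the gene of the Paneth cell secreted phospholipase, is annotated as a polymorphic pseudogene in GENCODE M21, and the labels do not give the mouse strain. It had 3.32, 6.31 and 8.15 CPM in clone1 and 1.02, 3.09 and 5.47 CPM in clone2, against 25, 35.4 and 85.4 CPM in shControl, a change of -3.34 ± 0.20 (adjusted p = 2.79e-14). Car9 (chromosome 4, 43506966 to 43513729), a membrane carbonic anhydrase induced by hypoxia, had 8.24, 13.9 and 19.6 CPM in clone1 and 0.441, 1.16 and 3.15 CPM in clone2, against 27, 65.8 and 97 CPM in shControl. It changed by -2.14 ± 0.26 in clone1 and by -5.46 ± 0.34 in clone2, and that difference between the clones passed too (adjusted p = 1.19e-08). The matrix protease Mmp7, made by Paneth cells and many tumours, had 5.54, 11 and 14.1 CPM in clone1 and 10.2, 14.1 and 20.1 CPM in clone2, against 16.4, 39.2 and 49.9 CPM in shControl, a change of -1.63 ± 0.12 (adjusted p = 3.51e-13). The only overlap of Mmp7 came from the shallow shControl replicate 3, at 16.4 CPM. All 3 genes were also lower against Scrambled, with -4.03 ± 0.24 for Pla2g2a, -4.85 ± 0.27 for Car9 and -1.72 ± 0.17 for Mmp7.

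Mgat4c and Tmed6 act in the secretory pathway. Mgat4c, of the family that branches N-glycans, had 4.97, 8.62 and 12.2 CPM in clone1 and 0.384, 3.01 and 6.96 CPM in clone2, against 10.9, 20.3 and 36.5 CPM in shControl, a change of -2.09 ± 0.26 (adjusted p = 3.69e-07). Tmed6, a p24 family protein of vesicle transport, had 0, 5.85 and 11.7 CPM in clone1 and 0, 1.31 and 2.26 CPM in clone2, against 9.87, 16.8 and 22.8 CPM in shControl, a change of -2.62 ± 0.24 (adjusted p = 7.08e-11). In clone1 the call of Mgat4c was lost with shControl 8 to 10 (-0.66, adjusted p = 0.279) and that of Tmed6 with the set block (adjusted p = 0.131). In each gene 17 of 18 knockout libraries lay below the lowest shControl library, and clone2 had the larger change. Ifitm3, a membrane protein that restricts virus entry, had 89.1, 166 and 219 CPM in clone1 and 56.1, 69.2 and 348 CPM in clone2, against 277, 379.9 and 550.0 CPM in shControl. Clone2 replicates 7 to 9 lay at 335 to 348 CPM, inside the shControl range, and the other 6 at 56.1 to 73.6 CPM. The fall of Ifitm3, -1.38 ± 0.30 (adjusted p = 0.00131), was lost in clone2 with replicates 7 to 9 alone, at -0.25 (adjusted p = 0.305). It was also lost in the mean of both clones with shControl replicates 1 to 4 (-1.11, adjusted p = 0.0884) or 5 to 7 (-1.29, adjusted p = 0.113) as the only control, and against Scrambled it was -0.98 ± 0.42 (adjusted p = 0.122).

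**Figure D2:**
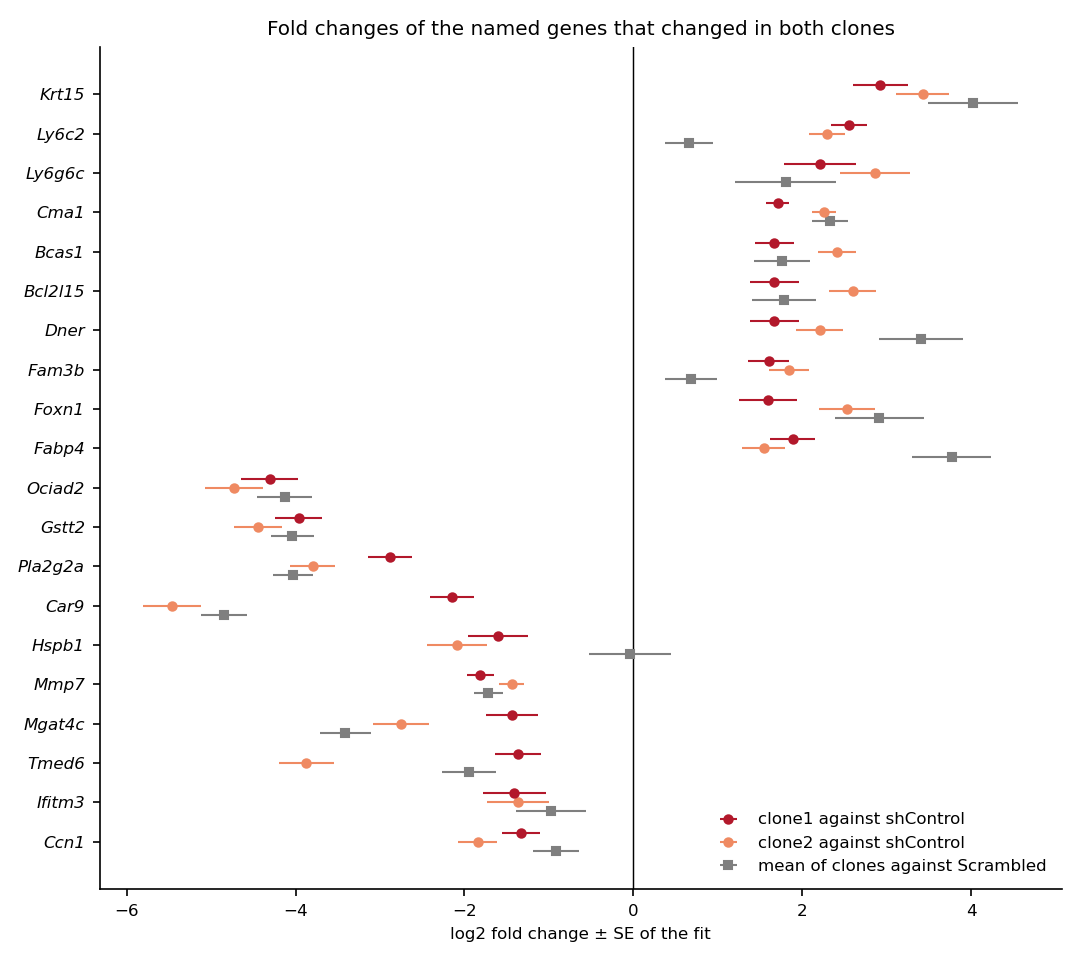
Log2 fold changes with the SE of the fit for the same 20 genes, in clone1 and clone2 against shControl (circles) and for the mean of both clones against Scrambled (squares). The squares lie near 0 for Hspb1 and under 1 for Ly6c2 and Fam3b, while Car9 and Tmed6 show the widest gaps between the clones.

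In 43 genes, 0.401% of those tested, the 18 knockout libraries did not overlap the 10 shControl libraries, 27 above (0.252%) and 16 below (0.149%). All 43 were among the 660 shared genes, and 33 of them also passed against Scrambled in the same direction. The genes named here were chosen after their values were seen, beyond those of the naming rule. Among the 16 below, 9 had medians under 2 CPM in both clones. They included Eva1b, at 0, 0 and 0.994 CPM in clone1 and 0, 0.232 and 0.576 CPM in clone2 against 3.03, 9.81 and 12.6 CPM in shControl, the cyclophilin Ppic (-4.27 ± 0.37) and the rhodanese-domain protein Tstd1 (-3.68 ± 0.45). The microsomal glutathione transferase Mgst1 (-2.51 ± 0.25) was below while its relative Mgst3 (0.79 ± 0.10) was above. The homeobox factor Msx1 changed by -2.23 ± 0.20, and the ETS factor Etv5, a gene induced by ERK signalling, by -1.18 ± 0.17. Etv5 did not pass against Scrambled (-0.36, adjusted p = 0.411).

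Among the 27 genes above shControl, Hif1a, the oxygen-regulated subunit of the hypoxia factor, had 35.6, 45.8 and 60.4 CPM in clone1 and 72.8, 79.5 and 91.8 CPM in clone2, against 21.23, 32.6 and 35.1 CPM in shControl, a rise of 1.02 ± 0.10 (adjusted p = 1.19e-10). Aldh3b2, a lipid aldehyde dehydrogenase, rose by 2.13 ± 0.13, the deubiquitinase Mindy1 by 1.42 ± 0.09 and the calcium-binding S100a1 by 1.33 ± 0.12. The secreted phospholipase Pla2g10 rose by 1.58 ± 0.19, in the opposite direction to Pla2g2a. Crip1, a LIM protein, was among the most abundant, at 4448, 5132 and 5815 CPM in clone1 and 3677, 4641 and 5243 CPM in clone2, against 2607, 2806 and 3066 CPM in shControl. Of the 27, 19 passed against Scrambled as well. Entpd8, an ectonucleotidase, did not, with a rise of 1.29 ± 0.14 against shControl and a value of 0.00 ± 0.20 against Scrambled (adjusted p = 0.997).

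The choice of control mattered for many shared genes. In 1 fit of all 34 libraries, with 11960 genes tested, both clones passed with the same sign in 777 genes against shControl (6.5%) and in 511 against Scrambled (4.27%). The 226 genes past both (1.89%), 117 higher and 109 lower, made up 29.1% of the first list and 44.2% of the second, and both lists share the knockout libraries. Without Scrambled replicate 1, 2 or 3, that count was 151, 137 or 161. Of the 660 genes above, 199 passed against both controls. Scrambled itself differed from shControl in 353 genes (2.95%). The mean of both clones differed from Scrambled in 1678 genes (14%), with 6.48% higher and 7.55% lower. In 46 of the 660, Scrambled had moved from shControl in the same direction as the knockouts, as Ly6c2 did, and in 13 in the opposite direction, as Fabp4 did. The value of the mean against Scrambled had the other sign in 49 of the 660.

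Of 18 heat shock genes tested, 10 were lower and 0 higher in the mean of both clones, with a median of -0.35 against -0.04 over all genes. In both clones at once 7 were lower, with 8 lower in clone1 and 13 in clone2. Without the mitochondrial members Hspd1 and Hspe1, 8 of 16 were lower in the mean, with a median of -0.25, and 5 in both clones at once. The count of 10 depended on the libraries, with 13 lower against shControl 1 to 4, 3 against 5 to 7, 6 against 8 to 10, and 5 with knockout replicates 7 to 9 alone. Hsph1, a nucleotide exchange factor for Hsp70, had 11.5, 15.5 and 23.3 CPM in clone1 and 3.01, 7.57 and 9.6 CPM in clone2, against 14.5, 18.5 and 99.3 CPM in shControl, a change of -1.92 ± 0.33 (adjusted p = 9.22e-05). The small heat shock protein Hspb1 had 5.66, 8.49 and 11.7 CPM in clone1 and 1.92, 6.51 and 8.16 CPM in clone2, against 9.81, 13.5 and 65.7 CPM in shControl, a change of -1.84 ± 0.29 (adjusted p = 2.46e-05). The highest shControl values of both genes were those of replicates 2 to 4. Replicates 1 to 4 averaged 72.5 CPM for Hsph1 and 44.4 CPM for Hspb1, while shControl replicates 8 to 10 averaged 16.4 and 11.1 CPM. Against replicates 8 to 10 alone, Hsph1 stood at -0.62 (adjusted p = 0.059), Hspb1 at -0.66 (adjusted p = 0.0574) and the lens and muscle chaperone Cryab at -0.40 (adjusted p = 0.27). With knockout replicates 7 to 9 alone Hsph1 did not pass (adjusted p = 0.122), and in clone1 Hspb1 did not pass in 5 settings, with the set block at -1.19 (adjusted p = 0.0572). Against Scrambled, Hsph1, Hspb1 and Cryab had values of -0.43 ± 0.49, -0.04 ± 0.49 and -0.40 ± 0.30, none past the threshold, and of 20 heat shock genes tested there 3 were lower, Hspd1 and Hspe1 among them, and 1 higher.

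The mitochondrial chaperonin pair Hspd1 and Hspe1, whose genes lie head to head and share a promoter, fell against both controls. Both lie on chromosome 1, where all tested genes had a median of -0.24 in clone1 and -0.11 in clone2. Hspd1 had 434, 455 and 757 CPM in clone1 and 240.3, 294 and 352 CPM in clone2, against 414, 852 and 929 CPM in shControl, a change of -0.88 ± 0.13 (adjusted p = 5.55e-06) and of -1.08 ± 0.18 against Scrambled. Hspe1 had 224, 266 and 401 CPM in clone1 and 261, 281 and 309 CPM in clone2, against 322, 558 and 745 CPM in shControl, a change of -0.86 ± 0.12 (adjusted p = 2.51e-06) and of -0.73 ± 0.17 against Scrambled. The stretch between both start sites is shown because it carries the inverted repeats that HSF1 recognises (RefSeq, build GRCm38.p6). Capitals mark overlapping matches to the heat shock element, the triplets GAA, TTC and GAA in this order with 2 bases of any kind between them, searched on both strands:

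Hspd1 (chr1:55088039-55088096, minus strand): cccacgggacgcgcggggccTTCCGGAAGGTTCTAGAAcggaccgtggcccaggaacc

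Hspe1 (chr1:55088039-55088096, plus strand): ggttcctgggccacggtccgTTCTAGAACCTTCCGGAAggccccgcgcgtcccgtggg

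The lines give the same bases read from opposite strands. Of 14 heat shock genes with a promoter in the table, 4 (28.6%) held this element in the window from 250 bases before to 50 after the start, against 0.662% of all 27025 promoters. The shared stretch counts once for Hspd1 and once for Hspe1. A match to letters is a description and not evidence of binding.

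**Figure D3:**
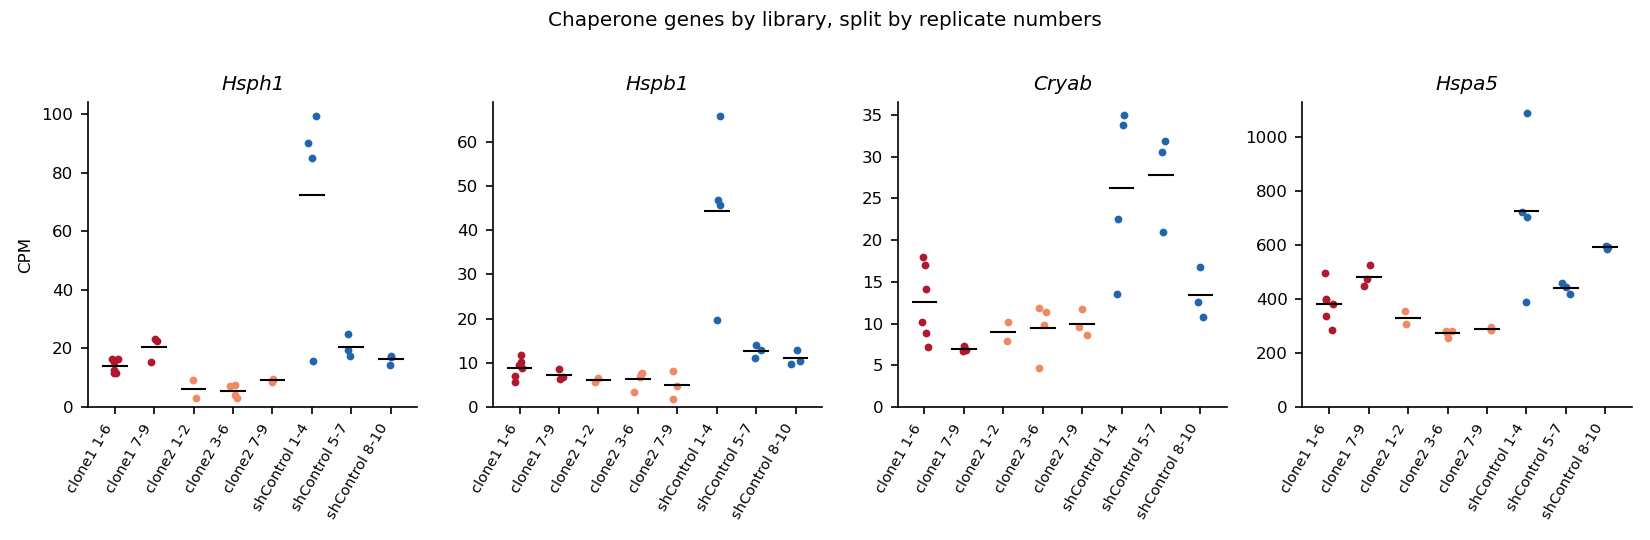
Levels in CPM on linear axes of Hsph1, Hspb1, Cryab and Hspa5, with 1 point per library and a bar at the mean, for sets of neighbouring replicate numbers of clone1, clone2 and shControl. Hsph1 and Hspb1 are highest in shControl replicates 1 to 4, at means of 72.5 and 44.4 CPM, whereas Hspa5 lies above every clone2 library in all 3 shControl sets.

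Of 22 chaperones of the endoplasmic reticulum tested, 13 were lower and 0 higher in the mean of both clones, with a median of -0.32. In both clones at once 7 were lower: Hspa5, Hsp90b1, Pdia3, Pdia6, Dnajc3, Manf and Hyou1. Hspa5, the Hsp70 of the endoplasmic reticulum, had 286, 398 and 526.4 CPM in clone1 and 254, 285 and 355 CPM in clone2, against 388, 589 and 1086 CPM in shControl, a change of -0.80 ± 0.12 (adjusted p = 4.87e-06). Manf, a secreted cofactor of Hspa5, had 46.5, 63.8 and 86.7 CPM in clone1 and 54.7, 68.2 and 91.1 CPM in clone2, against 56.2, 111 and 189 CPM in shControl, a change of -0.78 ± 0.14 (adjusted p = 0.000147). Hyou1, a nucleotide exchange factor for Hspa5, changed by -0.82 ± 0.16 (adjusted p = 0.000129). Against Scrambled, 8 of 22 were lower and 0 higher, with Hspa5 at -0.93 ± 0.16. The set block left 3 of 22 lower, shControl replicates 5 to 7 as the only control 1 and knockout replicates 7 to 9 alone 2. Manf stood at -0.09 (adjusted p = 0.765) and Hyou1 at -0.49 (adjusted p = 0.236) with shControl 5 to 7, and both also lost their calls with knockout replicates 7 to 9 (adjusted p = 0.0596 and 0.0545), Hyou1 with shControl 8 to 10 too (adjusted p = 0.0686).

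Promoters of the chaperones that fell in both clones are shown around the endoplasmic reticulum stress element, CCAAT and CCACG with 9 bases of any kind between them, bound by NF-Y and ATF6 and searched on both strands. Capitals mark the whole element (RefSeq, GRCm38.p6):

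Hspa5 (chr2:34772005-34772063, plus strand): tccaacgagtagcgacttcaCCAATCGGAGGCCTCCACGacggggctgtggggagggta

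Pdia6 (chr12:17266471-17266529, plus strand): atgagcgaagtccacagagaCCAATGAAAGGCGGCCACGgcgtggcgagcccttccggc

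Dnajc3 (chr14:118937807-118937865, plus strand): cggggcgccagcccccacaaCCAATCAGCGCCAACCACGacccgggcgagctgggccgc

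The 3 promoters share the outer letters of the element by the search itself, while the bases between them differ. The element occurred in 8 of 20 chaperone promoters (40%) against 0.137% of all promoters. Among the 11 chaperones that were lower and had a promoter in the table, 6 held it. Hsp90b1 (-0.46 ± 0.13) carried 2 matches, and Calr (-0.40) and Creld2 (-0.61), which passed in the mean of both clones, carried 1 each. Pdia3, Manf and Hyou1, also lower in each clone, were not among the genes with a match.

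Most genes tested of the integrated stress response, which restores amino acid supply when translation is slowed, were lower. Of 26 genes tested, 16 were lower and 1 higher, with a median of -0.47. In both clones at once 6 were lower: Ddit3, Trib3, Psph, Gdf15, Ppp1r15a and Cth. Clone1 had 8 lower and 1 higher and clone2 18 lower and 1 higher, and 1 gene passed with opposite signs. The summed level of the list went the other way in clone2, with a median of 5570 CPM (5196 to 6947). It was 4250 CPM (3729 to 4736) in clone1 and 3860 CPM (3409 to 5742) in shControl. The circulating stress cytokine Gdf15 had 25.1, 34.3 and 48.8 CPM in clone1 and 2.55, 3.58 and 10.9 CPM in clone2, against 36.3, 51.3 and 80.9 CPM in shControl, a change of -0.68 ± 0.20 in clone1 and -3.38 ± 0.23 in clone2. Cth, which makes cysteine from cystathionine, had 16.6, 26.7 and 49.8 CPM in clone1 and 5.91, 7.72 and 13.4 CPM in clone2, against 21.6, 53.8 and 70.2 CPM in shControl, a change of -0.66 ± 0.19 in clone1 and -2.56 ± 0.21 in clone2. The stress factor Ddit3 changed by -0.73 ± 0.16 (adjusted p = 0.00144) and the pseudokinase Trib3 by -0.76 ± 0.21 (adjusted p = 0.00665). Atf4 mRNA itself had -0.24 ± 0.12 (adjusted p = 0.129). Against Scrambled, 12 of 28 were lower and 1 higher. The set block left 5 of 26 lower, shControl replicates 5 to 7 alone 4 and knockout replicates 7 to 9 alone 5.

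Most genes tested of G2 and mitosis were lower, by less than 1 on the log2 scale in the mean. Of 28 tested, 20 were lower and 0 higher in the mean of both clones, with a median of -0.42. Clone1 had 6 lower, with a list median of -0.15, and clone2 26 lower and 1 higher, with a median of -0.66. The 6 of clone1, Ccnb2, Kif23, Cenpf, Cenpa, Cdca8 and Prc1, were lower in clone2 too. Ccnb2 lies on chromosome 9, where all tested genes had a median of -0.25 in clone1. Prc1 lies on chromosome 7, where that median was -0.02. The chromosomes of the rest of these 6 are not set out here, so Ccnb2 and Prc1 do not stand for the group. The part of chromosome medians in the clone1 falls was not tested. The chromosomal passenger subunit Cdca8 had 95.6, 111 and 143 CPM in clone1 and 62.9, 83.4 and 94.1 CPM in clone2, against 112, 157 and 171 CPM in shControl, a change of -0.63 ± 0.09 (adjusted p = 4.49e-07). The midzone kinesin Kif23 changed by -0.63 ± 0.12 (adjusted p = 0.000181) and the proliferation antigen Mki67 by -0.56 ± 0.13 (adjusted p = 0.00129). Against Scrambled, 20 of 28 were lower as well. With shControl replicates 5 to 7 as the only control 0 of 28 passed, while with replicates 8 to 10, also 3 libraries, 18 were lower. The set block left 5 of 28 lower and knockout replicates 7 to 9 alone 9. With shControl 5 to 7, Kif23 stood at -0.11 (adjusted p = 0.76) and Cdca8 at -0.25 (adjusted p = 0.182).

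Among S phase genes, 10 of 30 were lower in the mean and 0 higher, with 1 lower in clone1 and 22 in clone2. The clamp loader subunit Rfc3 was the only member lower in each clone, at -0.53 ± 0.11 (adjusted p = 0.000702). The helicase subunit Mcm3 had 46.8, 49.5 and 85.3 CPM in clone1 and 21.5, 31.7 and 52.9 CPM in clone2, against 46.9, 58.6 and 116 CPM in shControl, with -0.26 ± 0.19 in clone1 (adjusted p = 0.388) and -1.15 ± 0.20 in clone2 (adjusted p = 2.62e-05). In the mean 0 of 30 were lower with shControl replicates 1 to 4 or 5 to 7 as the only control or with knockout replicates 7 to 9 alone, 3 with the set block and 22 with shControl replicates 8 to 10. Mcm6 stood at 0.14 (adjusted p = 0.711) with shControl 1 to 4.

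Promoters of mitotic genes often hold the cell cycle homology region, written TTTGAA and searched on both strands, through which the DREAM complex represses them outside the cell cycle. It is shown in capitals for Ccnb2, the cyclin that activates Cdk1, and for Prc1, which bundles the spindle midzone, since both were lower in each clone (-0.39 ± 0.10 and -0.48 ± 0.10 in the mean):

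Ccnb2 (chr9:70421696-70421741, minus strand): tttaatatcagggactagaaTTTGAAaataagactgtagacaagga

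Prc1 (chr7:80294426-80294471, plus strand): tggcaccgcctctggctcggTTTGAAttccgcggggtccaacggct

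TTTGAA occurred in 18 of 23 promoters of the G2 and mitosis list (78.3%), against 20.2% of all promoters. A part of the ATF4 element, TGATG and AA with 1 base of any kind between them, searched on both strands in the same window, occurred in 7 of 22 integrated stress response promoters (31.8%), against 4.51% of all.

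Revival and fetal-like genes moved in both directions. Of 23 tested, 12 were higher and 5 lower in the mean, with a median of 0.35. Anxa1, Anxa8, Ly6a, Il33, S100a6, Krt7, Ly6d and Cd55 were higher in each clone, whereas Clu and the EGFR ligand Ereg were lower in each. Clu, the marker of revival stem cells, had 2.21, 3.32 and 5.34 CPM in clone1 and 0.818, 2.75 and 7.06 CPM in clone2, against 3.9, 11.2 and 16.9 CPM in shControl, a change of -1.73 ± 0.24 (adjusted p = 4.74e-07). Its fall held against Scrambled (-1.53 ± 0.31). The phospholipid-binding Anxa1 had 1791, 2230.4 and 2612 CPM in clone1 and 1595, 2522 and 3446 CPM in clone2, against 1174, 1321 and 2181.6 CPM in shControl, a rise of 0.69 ± 0.12 (adjusted p = 4.34e-05). Il33, an alarmin cytokine, rose by 1.33 ± 0.20 (adjusted p = 1.65e-05). The 12 higher became 3 with shControl 5 to 7, 3 with knockout replicates 7 to 9 and 8 with the set block, which had 2 lower and put Ereg at an adjusted p of 0.05. Against Scrambled, 5 of 23 were higher and 5 lower. Anxa8, which rose by 1.17 ± 0.16 against shControl, had a value of 0.07 ± 0.23 against Scrambled, which itself lay above shControl by 1.11 ± 0.23.

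Of 15 YAP/TAZ-TEAD targets tested, 6 were lower and 1 higher in the mean, with a median of -0.41. Clone1 had 3 higher and 3 lower, with a median of -0.06, and clone2 had 0 higher and 8 lower, with a median of -0.67. With shControl 8 to 10 alone, 3 were lower in the mean. Ccn1 and Gadd45a were lower in each clone. Ccn1, a matricellular protein, had 2.88, 6.44 and 7.72 CPM in clone1 and 1.99, 3.4 and 6.55 CPM in clone2, against 7.8, 15.5 and 22.5 CPM in shControl, with no overlap and a change of -1.59 ± 0.19 (adjusted p = 1.88e-08). Against Scrambled it changed by -0.92 ± 0.28 (adjusted p = 0.0183), a call lost without Scrambled replicate 1 (adjusted p = 0.106) or 2 (adjusted p = 0.199). Ccn2, its relative, had 0.31 ± 0.21 in clone1 (adjusted p = 0.328) and -1.90 ± 0.23 in clone2 (adjusted p = 2.25e-08). Gadd45a, a growth arrest gene, changed by -1.32 ± 0.24 (adjusted p = 0.000217), and with shControl replicates 8 to 10 alone its value was -0.48 (adjusted p = 0.197).

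Lineage genes of the crypt differed between the clones. Of 20 crypt-base genes, 2 were higher and 7 lower in the mean, and the Wnt feedback gene Axin2 was lower in each clone (-0.60 ± 0.12 in the mean). The count of 7 was 2 with the set block, 3 with shControl 8 to 10 and 2 with knockout replicates 7 to 9. Lgr5, the stem cell receptor, had 5.06, 9.56 and 18.8 CPM in clone1 and 0.409, 0.883 and 2.14 CPM in clone2, against 3.93, 6.97 and 14.5 CPM in shControl. Clone1 overlapped shControl, at 0.58 ± 0.26 (adjusted p = 0.109), and clone2 lay below it, at -2.67 ± 0.31 (adjusted p = 7.08e-09). Of 16 absorptive colonocyte genes, clone1 had 9 higher and 0 lower and clone2 had 3 higher and 9 lower, and 6 had calls of opposite sign. The enterocyte fatty acid carrier Fabp2 (1.33 ± 0.29) and Emp3 (1.14 ± 0.23) were higher in each. In the mean, the call of Fabp2 was lost with shControl 5 to 7 (adjusted p = 0.292) and with knockout replicates 7 to 9 (adjusted p = 0.507), and that of Emp3 with the set block (adjusted p = 0.442) and with shControl 5 to 7 (adjusted p = 0.0503). Of 12 goblet, Paneth and deep crypt secretory genes, 6 were lower and 1 higher in the mean, and the goblet disulfide isomerase Agr2 rose by 0.48 ± 0.10. The 6 became 3 with the set block, 3 with shControl 1 to 4 and 2 with knockout replicates 7 to 9. Wnt targets had 7 of 20 lower and 2 higher against shControl, but 1 of 21 lower and 5 higher against Scrambled, which itself was lower than shControl in 6 of them. The count of 7 was 4 with the set block, 4 with shControl 5 to 7 and 3 with shControl 8 to 10. Wif1, a secreted Wnt inhibitor, changed by -2.17 ± 0.27 against shControl and had 0.13 ± 0.46 against Scrambled (adjusted p = 0.894).

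**Figure D4:**
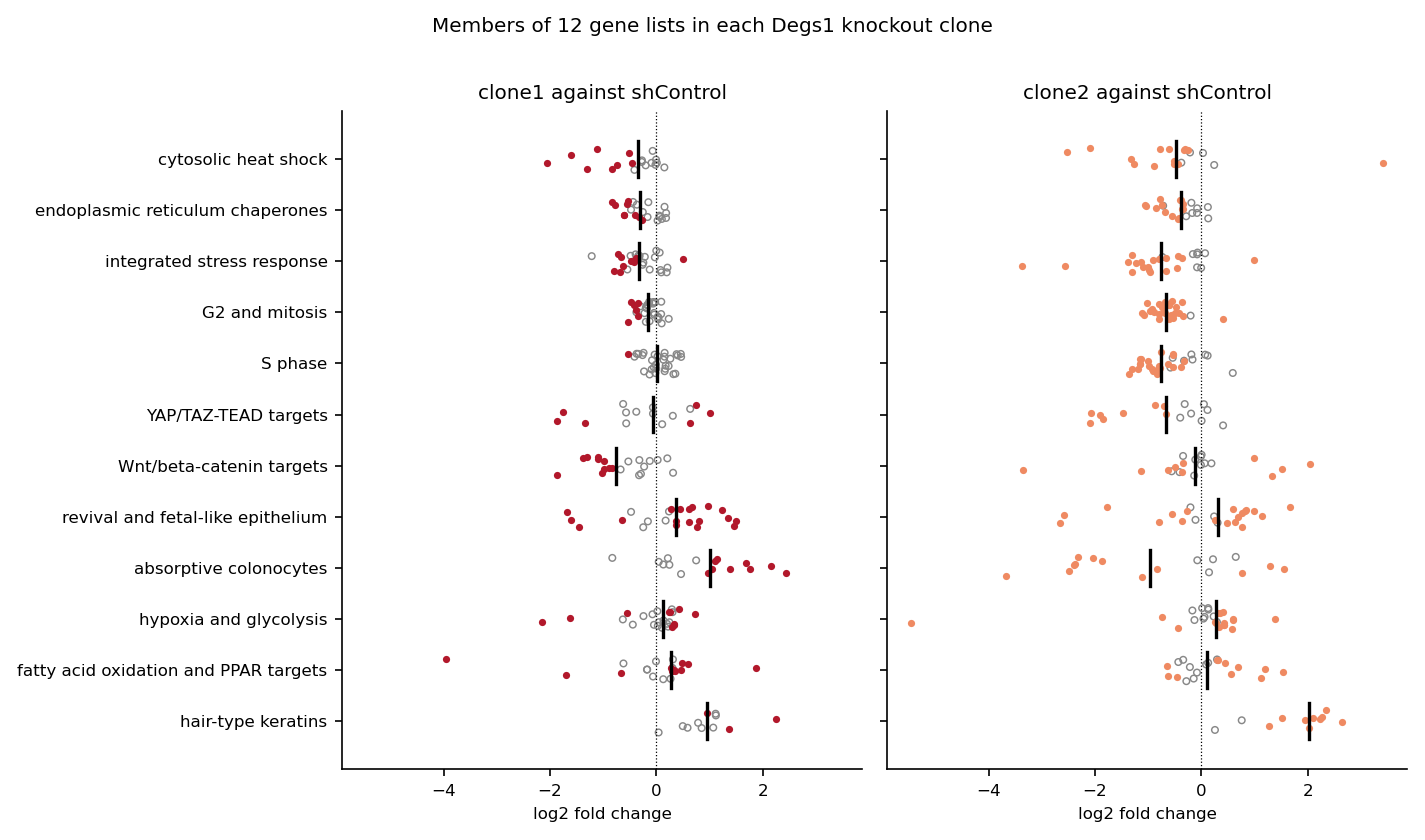
Log2 fold changes of the tested members of 12 gene lists, in clone1 (left) and clone2 (right) against shControl, with filled points past an adjusted p of 0.05, open points not past it and a bar at each list's median. Both chaperone lists have medians below 0 in each clone, S phase genes have a median of 0.01 in clone1 and -0.76 in clone2, and absorptive colonocyte genes have medians of 1.01 in clone1 and -0.97 in clone2.

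Sphingolipid genes other than Degs1 that changed did so by less than 1 on the log2 scale in the mean. Of 13 genes of de novo synthesis, 4 were higher and 2 lower in the mean (5 of 12, or 41.7%, without Degs1, against 22.1% of all genes), with a median of 0.00. Degs1 was the only member lower in both clones at once, 0 were higher in both, and 2 passed with opposite signs. Ormdl3, which restrains serine palmitoyltransferase, rose by 0.56 ± 0.15 (adjusted p = 0.00635), the ceramide synthase Cers5 by 0.43 ± 0.15 (adjusted p = 0.0329) and the paralog Degs2, which also makes phytoceramide, by 0.27 ± 0.08 (adjusted p = 0.0144). Degs2 rose in clone1 alone, by 0.68 ± 0.09, with -0.15 ± 0.09 in clone2. Of 27 genes of ceramide use and breakdown, 3 were higher and 3 lower (22.2%). With the set block 0 genes of de novo synthesis and 0 of ceramide use were higher and 1 of each lower, and with knockout replicates 7 to 9 alone 0 of synthesis passed. The alkaline ceramidase Acer2 had 3.65, 7.98 and 15.5 CPM in clone1 and 4.81, 8.18 and 14.5 CPM in clone2, against 8.28, 16.9 and 22.4 CPM in shControl, a change of -0.95 ± 0.19 (adjusted p = 0.000289). Glucosylceramide synthase, Ugcg, changed by -0.49 ± 0.13 (adjusted p = 0.00584), and both Acer2 and Ugcg were lower in each clone. Against Scrambled, Acer2 changed by -0.83 ± 0.27 and Ugcg had 0.05 ± 0.21 (adjusted p = 0.918). Without any 1 of the Scrambled libraries Acer2 did not pass against Scrambled (adjusted p from 0.0673 to 0.179). The call of Ormdl3 was lost with the set block (adjusted p = 0.116), with shControl 1 to 4 (adjusted p = 0.0981) or 5 to 7 (adjusted p = 0.276), and with knockout replicates 7 to 9 (0.33, adjusted p = 0.326). The set block also ended the call of Cers5 (adjusted p = 0.194). Acer2 was at -0.11 (adjusted p = 0.877) with shControl replicates 5 to 7 alone, and Cers5 was at 0.22 (adjusted p = 0.581) with replicates 5 to 7 and at 0.20 (adjusted p = 0.52) with replicates 8 to 10.

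Genes of fatty acid oxidation and PPAR targets were higher in 6 and lower in 2 of 20, and Acadl, Acadvl, Acaa2, Ech1 and Fabp4 were among those that rose in each clone. Acaa2, the thiolase that ends each round of mitochondrial beta-oxidation, had 70.9, 89 and 93.6 CPM in clone1 and 103, 124 and 162 CPM in clone2, against 41.6, 59.9 and 67 CPM in shControl, with no overlap and a rise of 0.90 ± 0.09 (adjusted p = 2.25e-10). The 6 became 1 with shControl 5 to 7 and 2 with knockout replicates 7 to 9. Against Scrambled Acaa2 had 0.26 ± 0.13 (adjusted p = 0.197). Decr1, which handles unsaturated fatty acids, went the other way, with 0.468, 1.11 and 2.72 CPM in clone1 and 11, 13 and 20.1 CPM in clone2, against 14, 20.7 and 32.6 CPM in shControl. It changed by -3.95 ± 0.24 in clone1 and by -0.64 ± 0.18 in clone2.

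Hypoxia and glycolysis genes were higher in 10 and lower in 2 of 25, with a median of 0.15. The count of 10 was 6 with the set block, 2 with shControl 5 to 7, 19 with shControl 8 to 10 and 2 with knockout replicates 7 to 9. With shControl 1 to 4, 8 were higher and 5 lower. The glycolytic enzymes Tpi1, Pgam1 and Ldha and the oxygen sensor Egln3 rose in each clone, with Ldha at 0.37 ± 0.07 and Egln3 at 0.54 ± 0.11. The 2 genes that fell in the main fit were Car9 and Slc16a3, a lactate exporter. Slc16a3 had 11.6, 18.8 and 25.2 CPM in clone1 and 29.5, 33.4 and 38.8 CPM in clone2, against 49.2, 54.5 and 62.8 CPM in shControl, with no overlap and a change of -1.18 ± 0.10 (adjusted p = 2.2e-12), and -0.97 ± 0.14 against Scrambled. The mitophagy receptor Bnip3 rose in clone2 alone, by 1.39 ± 0.10, with 0.05 ± 0.10 in clone1. Against Scrambled, 2 of 25 were higher and 4 lower. Cholesterol genes were higher in 6 and lower in 2 of 25, and none passed in both clones. The 6 became 2 with the set block, 11, 0 and 8 with shControl 1 to 4, 5 to 7 and 8 to 10, and 1 with knockout replicates 7 to 9. Mitochondrially encoded mRNAs were higher in 2 of 13 (15.4%), below the 22.1% of all genes that passed, and their median was -0.09. The 2 were mt-Co3 at 0.26 ± 0.07 and mt-Atp6 at 0.23 ± 0.08, and against Scrambled 6 of 13 were higher. With the set block 0 of 13 passed, with mt-Co3 at an adjusted p of 0.0643 and mt-Atp6 at 0.16. The direction depended on the control libraries, with 1 higher and 3 lower against shControl 1 to 4. Against shControl 5 to 7, 6 were higher and 0 lower, and against 8 to 10, 2 were higher and 3 lower.

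Of 12 simple and basal keratins, 7 were higher and 1 lower, with Krt19 (0.48 ± 0.07), Krt7 (0.56 ± 0.10) and Krt15 higher in each clone. The single fall was that of Krt14, a basal keratin, at 1.83, 3.32 and 8.83 CPM in clone1 and 0, 1.31 and 2.32 CPM in clone2, against 1.86, 7.96 and 14.8 CPM in shControl, a change of -1.69 ± 0.32 (adjusted p = 0.000138). With shControl 1 to 4 alone Krt14 stood at -0.89 (adjusted p = 0.165). The 7 higher became 1 with shControl 5 to 7 and 2 with knockout replicates 7 to 9. Of 11 hair-type keratins, 9 were higher and 0 lower in the mean, with a median of 1.45. Clone1 had 3 higher and clone2 9, and 8 differed between the clones. Against Scrambled 11 of 12 were higher, but Scrambled itself lay below shControl, with a list median of -1.82 and 1 gene past the threshold. Krt31 and Krt36 rose in each clone. Krt36 had 15.4, 31.5 and 44.8 CPM in clone1 and 31.3, 55.2 and 76 CPM in clone2, against 2.29, 14.8 and 19.4 CPM in shControl, a rise of 1.82 ± 0.29 (adjusted p = 3.35e-05). The summed level of the list was 187 to 324 CPM in clone1 and 344 to 665 CPM in clone2, against 20 to 266 CPM in shControl. With shControl replicates 5 to 7 alone, 1 of 11 was higher, and with knockout replicates 7 to 9 alone 2. Among 15 cornified envelope genes, 6 were higher and 1 lower, and the cross-linking enzyme Tgm1 rose by 1.35 ± 0.19 (adjusted p = 1.82e-06). The 6 became 1 with shControl 5 to 7 and 1 with knockout replicates 7 to 9. Hair-type keratins and Sprr2 genes have near-identical relatives, so reads may have been divided among them.

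In 438 genes the clones passed in opposite directions, 177 higher in clone1 and lower in clone2 (1.65%) and 261 the other way (2.43%). Cyp2c55, a cytochrome of colonocytes, had 66.9, 141 and 209.7 CPM in clone1 and 0.197, 0.849 and 6.09 CPM in clone2, against 8.57, 23.2 and 48 CPM in shControl. The drug efflux pump Abcb1a had 97, 117 and 137 CPM in clone1 and 2.46, 3.4 and 6.79 CPM in clone2, against 15.5, 33.4 and 48.8 CPM in shControl. Both were above the whole shControl range in clone1 and below it in clone2, by 2.44 ± 0.35 and -3.68 ± 0.46 for Cyp2c55 and by 1.80 ± 0.17 and -2.96 ± 0.21 for Abcb1a. The glutathione transferase Gsta1 had the same directions (1.78 ± 0.24 and -2.46 ± 0.31). The reverse was seen for Cxxc5, a Wnt modulator on chromosome 18, with -2.03 ± 0.33 in clone1 and 2.06 ± 0.24 in clone2, for Mgp, an inhibitor of calcification (-1.60 ± 0.41 and 1.63 ± 0.39), and for Sprr2a1, a cornified envelope protein (-1.75 ± 0.58 and 2.97 ± 0.57). In clone1 Sprr2a1 lost its call with the set block (adjusted p = 0.421) and in each subset but shControl 1 to 4, and Mgp with shControl 8 to 10 (adjusted p = 0.594), while in clone2 Mgp lost it with shControl 5 to 7 (adjusted p = 0.237). In the mean of both clones 43 of the 438 passed.

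Genes lower in both clones were spread unevenly over the chromosomes, a pattern looked at after the data were seen. Chromosomes 1, 4 and 9 held 1902 of the genes tested, or 17.7%, but 126 of the 306 genes lower in both clones (41.2%) and 23 of the 354 higher in both (6.5%). The median log2 fold change over all tested genes of these chromosomes was -0.24, -0.31 and -0.25 in clone1 and -0.11, -0.04 and -0.09 in clone2, while the median over all chromosomes was -0.02 in clone1 and -0.06 in clone2. In clone1 against Scrambled the 3 medians were -0.16, -0.25 and -0.24. Chromosome 18 had a median of 0.42 in clone2 and -0.01 in clone1, and held the highest share of genes higher in both, 6.69%, against 3.3% overall. Against Scrambled its median was 0.48 in clone2 and 0.06 in clone1. In the subsets of libraries, clone1 medians lay from -0.25 to -0.11 on chromosome 1, from -0.33 to -0.22 on chromosome 4 and from -0.29 to -0.21 on chromosome 9, and clone2 medians on chromosome 18 from 0.41 to 0.46. Among genes named above, Degs1, Hspd1 and Hspe1 lie on chromosome 1, Car9 and Pla2g2a on 4, Mmp7, Manf and the mitotic cyclin Ccnb2 on 9 and Acaa2 on 18. This is not a full list. Whether chromosome copy number differed between the lines, and its part in these results, was not tested. Ociad2, Gstt2 and Krt15 lie on chromosomes 5, 10 and 11. Chromosomes 5 and 10 had the lowest clone2 medians, -0.21 and -0.17, with -0.03 and -0.03 in clone1. On chromosome 10, 4.34% of the genes tested were lower in both clones, against 2.85% over all genes, and on chromosome 5, 2.69%.

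**Figure D5:**
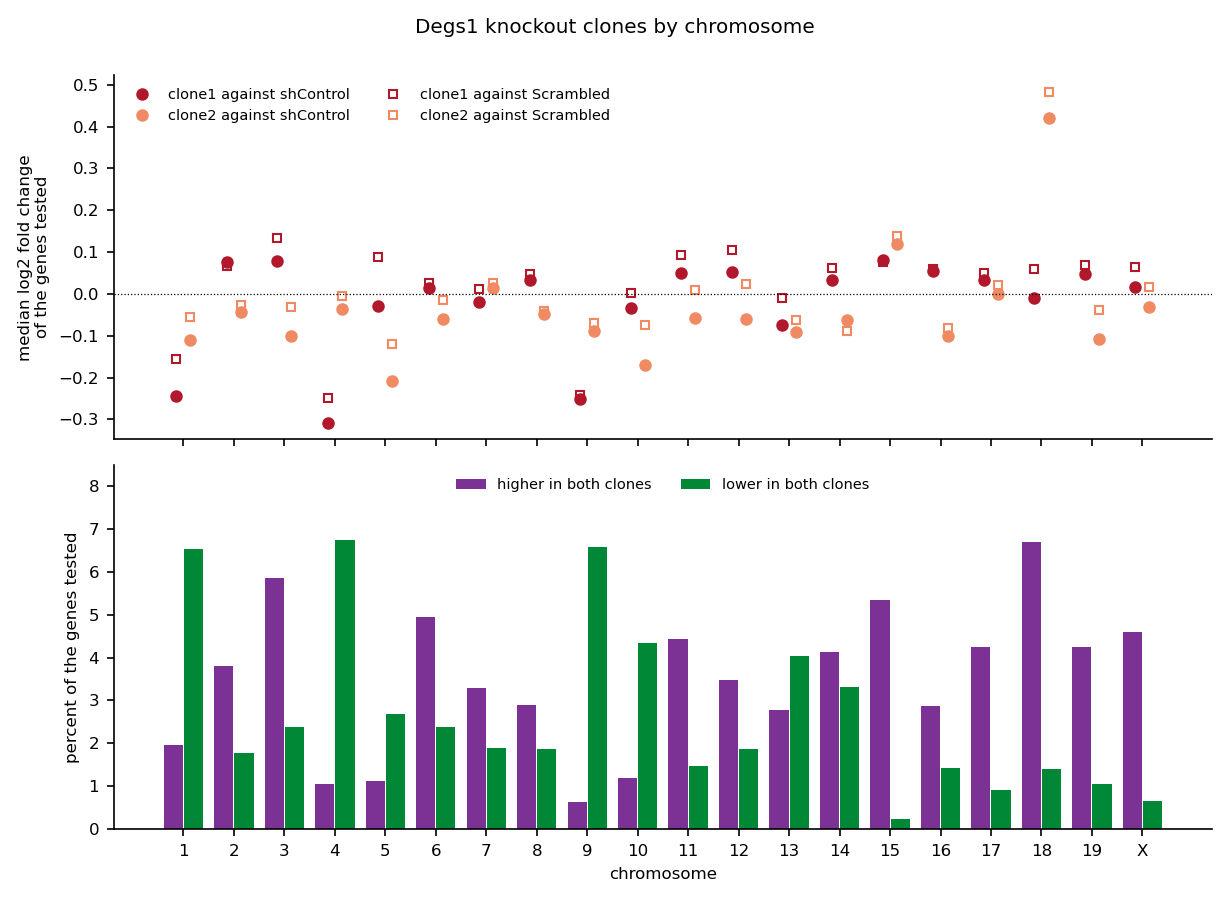
Above, the median log2 fold change of the genes tested on each chromosome in clone1 and clone2, against shControl (filled circles) and against Scrambled (open squares). Below, the percent of each chromosome's tested genes that were higher or lower in both clones against shControl: chromosomes 1, 4 and 9 show the largest shares of lower genes, 6.54%, 6.75% and 6.58%, and clone2 stands apart on chromosome 18.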

How the data were processed

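Per the labels' protocols, strand-specific libraries were made from poly(A)-selected RNA of mouse organoids. The deposited values were expected counts per gene, which the authors made with Salmon 1.3.0 on build mm10, per the submitters' processing notes. They were whole numbers and not scaled between libraries. The annotation release, the summing of transcripts to genes and the use of strand are not given in the sources used here. Of 54354 genes in the table, 29742 were at 0 throughout, and 1243 unnamed entries made up at most 0.0475% of any library's counts. Positions came from GENCODE M21 and promoters from RefSeq GRCm38.p6.

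The expected counts were used as deposited. Genes were kept by filterByExpr (minimum count 10, minimum total 15), scaled by TMM and fitted in edgeR 4.0.16 (R 4.3.3) with robust quasi-likelihood. Tests were two-sided, and p-values were adjusted by Benjamini-Hochberg over all genes tested, with 0.05 as the threshold. The main fit held 28 libraries and 10727 genes, and values against Scrambled came from 1 fit of all 34 libraries with 11960 genes. CPM levels use TMM over all 34. The test was checked on simulated counts of independent libraries. These held no sets of neighbouring replicates, so the check cannot speak to the effect of such sets on the calls. Totals from 883253 to 6597099 counts limit low genes most. Alternatives were DESeq2 1.42.0, limma 3.58.1, other scaling, filter and threshold, a replicate block and subsets of libraries.

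The members, gene lists and subsets were chosen with earlier results of these data known. Named were Degs1, Yap1, the 10 largest rises and 10 largest falls shared by both clones at a mean log2 CPM of at least 3, 3 genes of each opposite kind, and up to 3 members of each list described at a mean log2 CPM of at least 1. Other members named, and the mast cell and neutrophil markers, were picked once their values had been seen. The 3 shYAP libraries, made with a hairpin against YAP1, served the fit of 34 alone. Some genes that the naming rule chose or that lists hold are not reported here.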

Additional observations from a re-analysis of the deposited data

Results flagged for a closer look

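Among 234 groups of libraries of the 78 named genes, 18 held a library far from the others, and chance flags about 1 in 20 groups. Of these, 9 were the shallow libraries, clone1 replicate 2 and shControl replicate 3. Clone1 replicate 2 was the highest of its group for Bcl2l15 (21.0 CPM), Ociad2 (4.43 CPM), Gadd45a (60.9 CPM) and Ereg (6.64 CPM), and was the lowest for B4galt5, at 0 CPM. The shallow shControl replicate 3 was the lowest of its group for Mmp7 (16.4 CPM) and the highest for Gadd45a (192 CPM), Kif23 (68.6 CPM) and Hspa5 (1090 CPM, rounded). Without both shallow libraries 2360 genes passed in the mean of both clones and 626 in each clone with the same sign.

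The other flagged libraries were single values. The highest clone2 values were 6.42 CPM for Sp5 in replicate 9, 7940 CPM (rounded) for mt-Atp6 in replicate 4, and 10.2 CPM for Sprr2b and 59.6 CPM for Tgm1 in replicate 5. The lowest clone2 value of Hyou1, in replicate 1, was 4.24 CPM. Atf5 was at 7.98 CPM in clone1 replicate 9. The highest shControl values were 10.3 CPM for Cxxc5 and 15.6 CPM for Cerk in replicate 6, and 14.8 CPM for Krt14 in replicate 9.

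The clones' effects differed, by the direct test of clone2 minus clone1, in 14 of the largest changes, all with an edgeR adjusted p under 0.05. Opposite effects gave differences on the log2 scale of -6.12 for Cyp2c55, -4.76 for Abcb1a, -4.24 for Gsta1, 4.08 for Cxxc5, 4.72 for Sprr2a1 and 3.23 for Mgp. Among the genes higher in both clones, clone2 exceeded clone1 by 0.55 for Cma1, 0.74 for Bcas1, 0.92 for Bcl2l15 and 0.94 for Foxn1. Among those lower in both, the differences were -0.92 for Pla2g2a, -3.32 for Car9, -1.32 for Mgat4c and -2.50 for Tmed6.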

How the results depend on the processing

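The 2376, 660, 2154 and 4170 genes changed in the mean, in both clones with the same sign, in clone1 and in clone2 moved by over 1.5 times in these settings. With sets of neighbouring replicates as a random block in limma they were 886, 191, 703 and 2276, of which the 191 were all among the 660. At an adjusted p of 0.01 the first 3 were 1390, 320 and 1236, and at a log2 fold change of at least 1 all 4 were 430, 148, 581 and 1017. With shControl replicates 5 to 7 alone the first 3 were 1264, 366 and 1259, and 196 of the 366 were among the 660. With shControl replicates 8 to 10 alone the shared count was 1090, of which 414 were among the 660. With knockout replicates 7 to 9 alone the 4 counts were 910, 157, 905 and 2284, and 126 of the 157 were among the 660. The 226 genes past both controls became 137 to 161 without 1 Scrambled library each. The other 47 counts stayed within 1.5 times, with 2366 genes in the mean with DESeq2 size factors, 2619 with DESeq2 and 2956 with no filter. The cause was not tested.

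Replicate numbers did not pair the libraries: deviations from group means of same-numbered libraries had correlations from -0.136 to 0.22, and at most 2 of 9 libraries correlated best with their own number. With the replicate block the 4 counts were 2107, 565, 1949 and 3761, and Yap1 stood at 0.0004.

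Among single genes, the sign turned for Yap1, which did not pass in any setting (0.31 in the mean and 0.14 in clone1 with shControl 1 to 4, 0.050 in the mean with knockout 1 to 6, and in clone2 -0.047 with shControl 5 to 10, -0.10 with shControl 5 to 7 and -0.10 with knockout 7 to 9). It also turned for B4galt5 (0.071) and Mcm6 (0.14) with shControl 1 to 4, Atf5 (0.050) with shControl 5 to 7 and mt-Co3 (-0.029) with shControl 8 to 10. Against Scrambled, with 1 of its libraries left out in turn, the value ranged from -0.014 to 1.20 for Sp5, from -0.41 to 0.11 for Atf5, from -0.14 to 0.11 for Hspb1, from -0.14 to 0.29 for Wif1 and from -0.026 to 0.079 for Krt4. Of the 78 named genes, 49 lost a call or turned in at least 1 setting against shControl, 36 with shControl 5 to 7 alone and 34 with knockout 7 to 9 alone. DESeq2 size factors put the median of all genes at -0.04, as TMM did, and 48.0% of calls higher, against 46.3%. Depth limits genes of few counts, such as Degs1.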

Other observations

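Among gene lists that the account above does not describe, members that changed alike in both clones numbered 3 of 17 integrin and laminin genes (17.6%), 2 of 17 NF-kappaB genes and chemokines (11.8%) and 2 of 17 intestinal transcription factors (11.8%), against 6.15% of all genes tested. Of 17 integrin and laminin genes, 5 were higher and 1 lower in the mean, and Lama3, a chain of epithelial laminin, had 7.55, 11.9 and 15.9 CPM in clone1 and 13.9, 19.0 and 20.8 CPM in clone2, against 3.65, 7.75 and 11.4 CPM in shControl, a rise of 0.91 ± 0.15 (edgeR adjusted p = 9.65e-06). Itgav, the alpha-V integrin, and the tetraspanin Cd151 rose in each clone too, by 0.36 ± 0.11 and 0.34 ± 0.10. Of 17 NF-kappaB genes and chemokines, 2 were higher and 3 lower. Il18, a cytokine of epithelial cells, rose by 1.72 ± 0.41 (adjusted p = 0.00162), and Ccl25, the chemokine that draws T cells to the small intestine, changed by -0.77 ± 0.18 (adjusted p = 0.00159). Among 17 intestinal transcription factors, 0 were higher and 4 lower, with Cdx1 at -1.30 ± 0.36 and Sox4 at -0.36 ± 0.09, both lower in each clone.

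Other lists split between the clones. Over all genes tested, 8.99% were higher and 11.1% lower in clone1, and 18.7% higher and 20.2% lower in clone2. Of 40 cytosolic ribosomal protein genes, clone1 had 0 higher and 18 lower and clone2 had 13 higher and 4 lower, and Rps2 was the single member lower in each. Of 34 nuclear-encoded respiratory chain genes, clone1 had 2 higher and 9 lower and clone2 had 19 higher and 1 lower. Of 23 junction and adhesion genes, clone1 had 7 higher and 2 lower and clone2 had 2 higher and 10 lower. Of 16 interferon and antigen presentation genes, clone1 had 1 higher and 7 lower and clone2 had 5 higher and 1 lower. Of 25 NRF2 and glutathione genes, the pentose phosphate enzymes G6pdx (0.46 ± 0.07) and Taldo1 (0.34 ± 0.06) rose in each clone, and 4 passed with opposite signs. Of 18 p53 targets, 1 was higher and 2 lower in the mean (16.7%, against 22.1% of all genes tested). Among 8 Hox genes, 1 was higher and 2 lower (37.5%), and Hoxa7 changed by -1.07 ± 0.23 (adjusted p = 0.000567). Fatty acid synthesis and desaturation had 2 of 23 higher and 2 lower (17.4%), and BMP signalling and Id genes 0 of 14 higher and 2 lower (14.3%), both below 22.1%. EGFR ligands and receptors had 1 of 10 higher and 3 lower (40%). The tuft cell actin regulator Avil was 1 of 2 enteroendocrine and tuft genes tested and changed by -1.55 ± 0.31 (adjusted p = 0.000418). The causes of these differences were not tested, and with sets of neighbouring replicates as a random block the calls in the mean became 3 for integrins and laminins, 2 for NF-kappaB genes and 3 for the transcription factors.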
